A study of Mus musculus with 272 samples.

Results

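The Fbxw cluster of mouse chromosome 9 is a row of closely related F-box genes read mainly in oocytes. Of 15854 gene symbols in the expression table, 15 ran from Fbxw13 to Fbxw28, and the 10 with the highest mean level over 32 transcriptome libraries are described here. These were Fbxw24, Fbxw28, Fbxw14, Fbxw19, Fbxw18, Fbxw15, Fbxw22, Fbxw21, Fbxw16 and Fbxw20. They were thus chosen by their measured transcriptome level. That mean ran from 2576 counts per 1000000 reads (CPM) for Fbxw24 to 430.4 for Fbxw20, the last to be included. The first to be left out was Fbxw26 at 386.8 CPM, followed by Fbxw27 at 287.5, Fbxw25 at 193.7, Fbxw13 at 84.1 and Fbxw17 at 3.83.

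The samples were mouse germinal vesicle (GV) oocytes, metaphase II (MII) oocytes, zygotes, 2-cell, 4-cell and 8-cell embryos, morulae and blastocysts. No strain, genotype, age or drug treatment separates the groups, and none is given in the sources used here. Each stage had 4 transcriptome libraries from pools of 20 oocytes or embryos. It also had 3 sucrose gradients, A to C, each loaded with the lysate of about 100 oocytes or embryos and cut into 10 fractions, with 1 library a fraction. Cycloheximide, which holds ribosomes on transcripts, was present in every lysate and gradient. Transcripts with more ribosomes sediment further, so fractions 6 to 10 are called the heavy side and fractions 1 to 5 the light side, a division the labels do not make. All libraries were made from polyadenylated RNA, so levels are those of transcripts with a poly(A) tail. Tail length was not measured, and a change in tails cannot be told apart from a change in amount.

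An F-box protein is the substrate adaptor of an SCF ubiquitin ligase. Its F-box binds Skp1, which joins it to the scaffold Cul1 and the RING protein Rbx1, and the rest of the protein picks the target that is tagged with ubiquitin. In the Fbxw class the target-binding part is built from WD40 repeats. The mature oocyte makes little or no new RNA, and ubiquitin-dependent turnover of stored proteins is part of meiotic maturation and of the passage from egg to embryo. The genes of this cluster are rodent multicopy genes, and the targets of the single members are not stated here.

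In the RefSeq gene order of chromosome 9 the cluster reads Fbxw21, Fbxw13, Fbxw20, Fbxw14, Fbxw28, Fbxw22, Fbxw16, Fbxw19, Fbxw23, Fbxw15, Fbxw24, Fbxw25, Fbxw18, Fbxw26 and Fbxw27, with only 3 small nuclear RNA genes between them. Fbxw23 was not analysed here, and Fbxw17 lies on chromosome 13. The coding sequences of the 10 members, taken from the GENCODE transcripts of GRCm38, were 79.5% to 99.1% identical (median 84.4% over 45 pairs). Each was 57.0% (Fbxw21) to 60.0% (Fbxw28) identical to Fbxw17. Fbxw28 and Fbxw14 were the closest pair at 99.1%, and Fbxw22 was 92.7% identical to Fbxw14 and 92.3% to Fbxw28.

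The likeness extends upstream of the genes. RefSeq promoter sequences (GRCm38.p6) were available for 9 members, all but Fbxw22, and were 84.7% to 97.3% identical over 36 pairs (median 90.3%), against 55.6% to 64.3% with Fbxw17. The 130 bases before the annotated start of 6 members are printed below, 5′ to 3′ on the minus strand. They are the most abundant member (Fbxw24), the near-identical pair (Fbxw28 and Fbxw14), Fbxw19, the member that fell furthest in the MII oocyte (Fbxw21) and the 1 member without the second motif (Fbxw20). Their positions are chr9:109626060-109626189 (Fbxw24), chr9:109339660-109339789 (Fbxw28), chr9:109287677-109287806 (Fbxw14), chr9:109495855-109495984 (Fbxw19), chr9:109162023-109162152 (Fbxw21) and chr9:109234755-109234884 (Fbxw20). Capitals mark CAGCTG, an E-box of the form CANNTG, and TTTAAAA, an A and T rich run.
Fbxw24: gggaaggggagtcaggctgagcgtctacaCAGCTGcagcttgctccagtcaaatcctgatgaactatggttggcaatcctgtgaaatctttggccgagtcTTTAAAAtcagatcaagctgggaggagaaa
Fbxw28: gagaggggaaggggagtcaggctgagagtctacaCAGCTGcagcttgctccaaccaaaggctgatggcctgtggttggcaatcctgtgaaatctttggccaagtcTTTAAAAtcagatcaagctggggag
Fbxw14: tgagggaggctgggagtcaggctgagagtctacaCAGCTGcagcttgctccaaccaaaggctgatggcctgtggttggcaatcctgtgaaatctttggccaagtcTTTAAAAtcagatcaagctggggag
Fbxw19: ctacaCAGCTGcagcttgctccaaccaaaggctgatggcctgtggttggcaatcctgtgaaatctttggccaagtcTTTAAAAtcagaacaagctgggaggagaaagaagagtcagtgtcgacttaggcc
Fbxw21: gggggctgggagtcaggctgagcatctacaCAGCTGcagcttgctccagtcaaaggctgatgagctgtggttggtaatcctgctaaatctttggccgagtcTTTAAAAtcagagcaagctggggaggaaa
Fbxw20: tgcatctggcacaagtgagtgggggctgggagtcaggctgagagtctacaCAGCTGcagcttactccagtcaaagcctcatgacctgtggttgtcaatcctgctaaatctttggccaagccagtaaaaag

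Both motifs were chosen after these sequences had been read. CAGCTG stood in 9 of 9 member promoters, against 12.8% of 27025 mouse promoters of the same length. The search took both strands before the annotated start, beyond the printed bases as well. Its copy nearest to the start lay 80 bases (Fbxw20) to 125 bases (Fbxw19) upstream, and the 8 members other than Fbxw20 held a further copy 139 to 183 bases upstream. Fbxw17, outside the cluster, also held CAGCTG, 94 bases upstream, so the motif is not particular to the cluster. TTTAAAA stood in 8 of 9 against 8.0% of all promoters, 10 bases (Fbxw18) to 54 bases (Fbxw19) upstream. CANNTG in general, which includes CAGCTG, stood in 9 of 9 against 66.0%, and the homeobox core TAATTG in 0 of 9 against 7.34%. The members are copies of one another, so these matches are not independent of each other.

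The transcripts also share their ends. The 3′ untranslated region was 52 to 86 bases long in 8 members, 348 in Fbxw14 and 401 in Fbxw22, against a median of 941.5 bases over 13250 genes of the table. AATAAA, the polyadenylation hexamer, stood in 10 of 10. In Fbxw14 the last hexamer (AATAAA or ATTAAA) began 312 bases before the annotated end, against 18 (Fbxw19) to 26 (Fbxw15) in the other members. The cytoplasmic polyadenylation elements TTTTAT and TTTTAAT stood in 0 of 10. Among 3301 genes with 3′ regions of 52 to 401 bases, AATAAA stood in 68.6%, TTTTAT in 18.1% and TTTTAAT in 5.97%. The 8 members with 52 to 86 bases lie at the short end of that range, and a shorter region has fewer places for a motif. Since the members are copies of one another, these counts are a description.

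Because of their likeness, reads can be shared between members. Of all 150-base windows of the Fbxw28 transcript 32.2% also occurred in another of the 15 genes, as did 30.2% of those of Fbxw14, and none of the windows of the other 8 members did. How reads with several matches were treated is not given in the sources used here, so the values of Fbxw14 and Fbxw28 are uncertain as separate genes.

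In units of 1000000 reads, depth was 11.2 to 24.3 in transcriptomes and 0.0102 to 43.2 (median 18.6) in fractions. Of the 15 fraction libraries under 1000000 reads, 14 were fraction 1 of GV, 2-cell, 4-cell, 8-cell or morula gradients and 1 was fraction 6 of the 4-cell gradient A. The stage labels went with their markers. The summed level of 12 of 12 oocyte markers ran from 20360 to 23540 CPM in GV libraries and was 8.72 to 14.6 in those of blastocysts, that of 7 of 7 genes of the 2-cell embryo from 2167 to 2840 in 2-cell embryos, and that of 8 of 9 blastocyst genes from 2604 to 3144 in blastocysts. Of 12 markers of cumulus and granulosa cells 5 were in the table, with sums of 41.3 to 51.7 CPM in GV oocytes, 65.9 to 75.8 in MII oocytes, 55.8 to 63.7 in zygotes and 0.171 to 0.488 in blastocysts, and Inha was at 0 in zygotes and 2-cell embryos. Their part in the results was not tested. CPM is a share of the library's reads, and in these pools less RNA per cell cannot be told apart from a lower share of intact cells.

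Together the 10 members took 4.43% of all reads of the GV oocyte, 44340 ± 4170 CPM (SD, n = 4). The share was 2.54% in MII oocytes (25440 ± 2965 CPM) and 2.57% in zygotes (25660 ± 1878). It was 0.356% in 2-cell embryos (3563 ± 418 CPM), and the summed level was 38.4 ± 10.1 CPM in 4-cell embryos, 22.2 ± 4.25 in 8-cell embryos, 20.2 ± 7.73 in morulae and 2.12 ± 0.738 in blastocysts. The members were thus among the abundant transcripts of the oocyte and were at a low level from the 4-cell stage on. Since 10 of 15 genes were kept for their mean level in these same libraries, changes in the transcriptomes are given as a description, with no p-value for a single member. Counts of members past a threshold in these libraries, and the shares over all genes beside them, are part of that description and support nothing. The same holds for single members named as called or not called in transcriptomes, and for their counts at an unadjusted p.

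**Figure D1:**
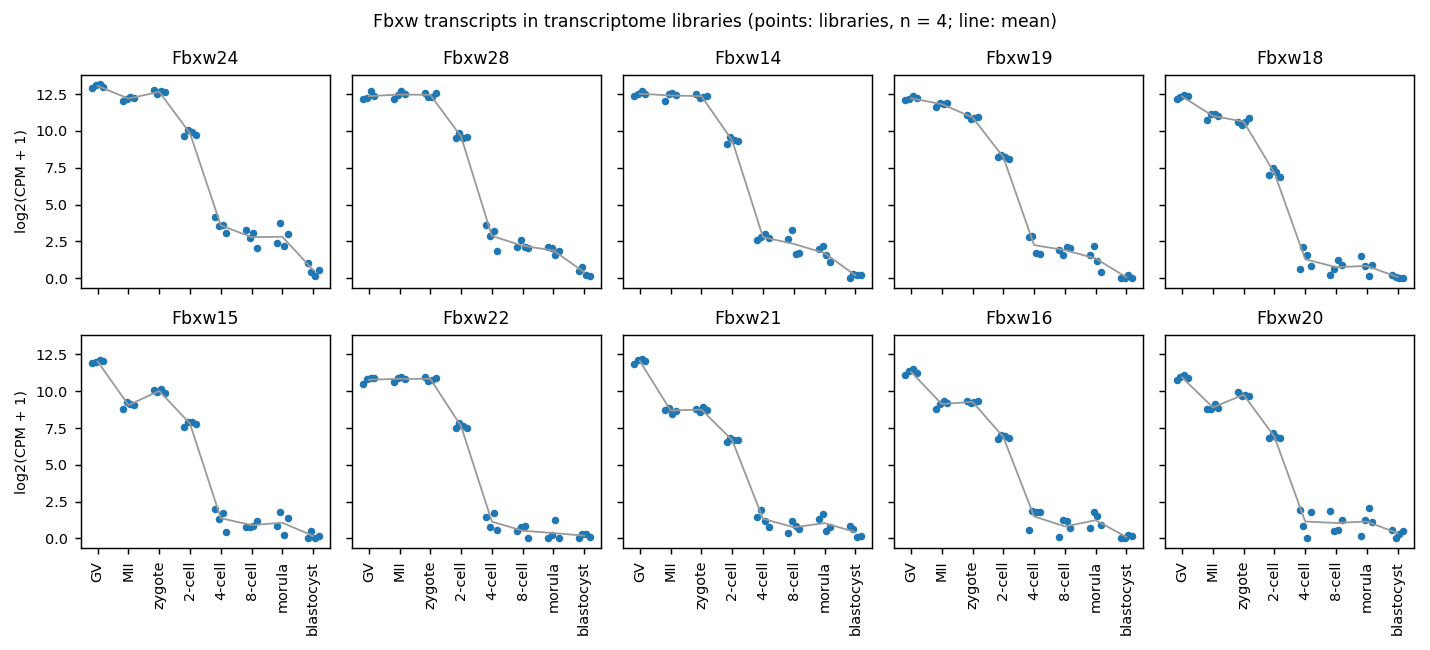
Level of each of the 10 Fbxw genes in every transcriptome library (points, n = 4 a stage) and its mean (line), as log2(CPM + 1) on the vertical axis, against stage on the horizontal axis. All 10 genes average 415 CPM or more through the zygote and 11.4 CPM or less from the 4-cell stage on, and the drop at MII is seen in some genes and not in others.

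Per kilobase of transcript, Fbxw24 had the highest level in GV oocytes, 5717 ± 460 CPM per kilobase (SD, n = 4). Fbxw28 (3536), Fbxw18 (3407), Fbxw14 (3306), Fbxw19 (3213), Fbxw21 (2798) and Fbxw15 (2787) followed, each overlapping its neighbour in this order over the 4 libraries. Fbxw16 (1713), Fbxw20 (1304) and Fbxw22 (963) came last and did not overlap. In MII oocytes the order was led by Fbxw28 (3825), Fbxw24 (3156), Fbxw14 (3066) and Fbxw19 (2436), which overlapped in sequence, and Fbxw22 was the sixth at 1006. Fbxw21 came last with 274 CPM per kilobase, after being the sixth in the GV oocyte.

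The members took separate courses at the passage from the GV to the MII oocyte. Fbxw21 measured 3702, 4358, 4605 and 4256 CPM in the 4 GV libraries and 430.1, 471.2, 346.9 and 410.7 in the 4 MII libraries, with no overlap. Its change was -3.35 on the log2(CPM + 1) scale (limma, SE 0.22), the scale of every change below. Fbxw15 went from 3801, 4137, 4505 and 4220 CPM to 435.7, 601.4, 566.2 and 529.7, a change of -2.97 (SE 0.25). Both were thus several-fold lower in every MII library than in every GV library.

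Fbxw16 changed by -2.19 (SE 0.24), from 2236 to 2948 CPM in GV libraries to 450.9 to 659.6 in MII libraries, and Fbxw20 by -2.04 (SE 0.32), from 1754 to 2173 to 440.2 to 571.3. Fbxw18 changed by -1.32 (SE 0.24), from 4597 to 5637 CPM to 1736 to 2273. Fbxw18 lost its call in the count models, with a change of -0.99 in edgeR and -0.86 in DESeq2. Fbxw24, the most abundant member, measured 7662, 8889, 9208 and 8271 CPM in GV and 4162, 4624, 5097 and 4904 in MII libraries, again without overlap. Its change of -0.86 (SE 0.24) was under the size of 1 that a call required, and was -1.44 and called after quantile normalization.

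The remaining members changed little. Fbxw28 measured 4513, 4866, 6547 and 5250 CPM in GV and 4523, 5663, 6798 and 5922 in MII libraries, a change of 0.11 (SE 0.22). Fbxw14 measured 5315, 5856, 6656 and 5790 CPM and then 4266, 5948, 6134 and 5558, a change of -0.12 (SE 0.23). Fbxw22 measured 1464, 1783, 1950 and 1870 CPM and then 1590, 1941, 2042 and 1813, a change of 0.07 (SE 0.23). The GV and MII libraries of these 3 genes overlapped. Fbxw19 was at 4313, 4698, 5337 and 4714 CPM and then at 3167, 3867, 3622 and 3794, all below the GV values, with a change of -0.40 (SE 0.24).

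By the rule used for all genes (adjusted p under 0.05 and a change of at least 1), 5 of 10 members met the rule on the lower side in MII oocytes, where 25.3% of all genes were called lower and 34.5% in either direction. The median change of the members was -1.09 against -0.11 over all 14642 genes tested. The scaling moves that reference, since the median of all genes was 0.15 after quantile normalization, -0.0053 in edgeR and 0 in DESeq2. Of the calls over all genes 26.4% were higher with the deposited values, 55.4% after quantile normalization, 41.5% in edgeR and 47% in DESeq2. The change of Fbxw19 was -0.53, -0.08 and 0.05 under these 3 scalings, the last of opposite sign. The highest change of any member was 0.07, 0.44 and 0.58. The matching genes outside the 10 all changed downward, from -2.54 (Fbxw27) to -4.64 (Fbxw26). Fbxw26 was at 2158 to 2866 CPM in GV libraries, above Fbxw22 in each, and at 99.1 to 121.3 in MII libraries.

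Between the MII oocyte and the zygote 0 of 10 members were called by limma (10.3% of all genes), with 3 at an unadjusted p under 0.05, 1 by edgeR and 0 by DESeq2. The median change was 0.03, against 0.00 over all genes. The members nonetheless spread from -0.90 (Fbxw19, SE 0.24) to 0.97 (Fbxw15, SE 0.25). Fbxw19 was at 2137, 1813, 1838 and 1966 CPM in zygotes, below every MII library. Fbxw15 was at 1106, 988, 1113 and 962.6 CPM and Fbxw20 at 972.2, 832, 861.5 and 807.5, above every MII library. Fbxw24 likewise was higher in zygotes, at 6949, 5931, 6639 and 6295 CPM, without overlap (change 0.46, SE 0.24). Without MII library B or C or zygote library D, 1 member was called.

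From the zygote to the 2-cell embryo 10 of 10 members met the same rule on the lower side, where 8.71% of all genes were called lower and 33.9% in either direction. The change ran from -2.08 (Fbxw21) to -3.49 (Fbxw18), with a median of -2.82 against 0.37 over all genes. Fbxw24 was at 805.2, 1087, 960.7 and 835.4 CPM in the 4 libraries, Fbxw28 at 717.8, 927.2, 733.3 and 762.9, and Fbxw14 at 551.9, 773.1, 657.9 and 644.7. The lowest was Fbxw21, at 91.8, 109.8, 101.9 and 102.1 CPM. No member's zygote and 2-cell libraries overlapped, which is a description, since the members were kept for their level in these libraries. The share of all genes without overlap was not taken. Of all genes 62% had an unadjusted p under 0.05 at this step (limma).

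From the 2-cell to the 4-cell embryo 10 of 10 again met it on the lower side, where 32.9% of all genes were called lower and 64.8% in either direction. The change ran from -5.34 (Fbxw21) to -6.75 (Fbxw28), with a median of -6.12 against 0.02 over all genes. Fbxw24 was left with 16.5, 10.8, 11.2 and 7.29 CPM, Fbxw28 with 11.3, 6.10, 8.09 and 2.53, and Fbxw14 with 5.16, 5.83, 6.91 and 5.72. The other 7 averaged 4.11 CPM or less. From the zygote to the 4-cell embryo the mean level fell 263-fold (Fbxw21) to 1379-fold (Fbxw22).

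Little was left to change afterwards. Called were 0 of 10 members from the 4-cell to the 8-cell embryo (2.6% of all genes) and 0 of 10 from the 8-cell embryo to the morula (11.9%), with 1 member called at the first step without 4-cell library A or D. At an unadjusted p under 0.05 limma gave 6 and 2, edgeR called 0 and 1, and DESeq2 0 and 1. From the morula to the blastocyst 5 of 10 were called lower (7.97% of all genes lower, 26.8% in either direction). These were Fbxw24 (-2.26), Fbxw14 (-1.51), Fbxw28 (-1.48), Fbxw19 (-1.28) and Fbxw16 (-1.14), against a median over all genes of 0.16. Without morula library B the changes of Fbxw16 and Fbxw19 were -0.95 and -0.995 and were not called, and the count was 3. It was 9 in edgeR and in DESeq2, 8 with a pseudocount of 0.5 and 1 with a pseudocount of 5. Fbxw24 went from 4.15, 12.2, 3.48 and 6.93 CPM to 1.07, 0.336, 0.125 and 0.488, and these last values rest on few reads.

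**Figure D2:**
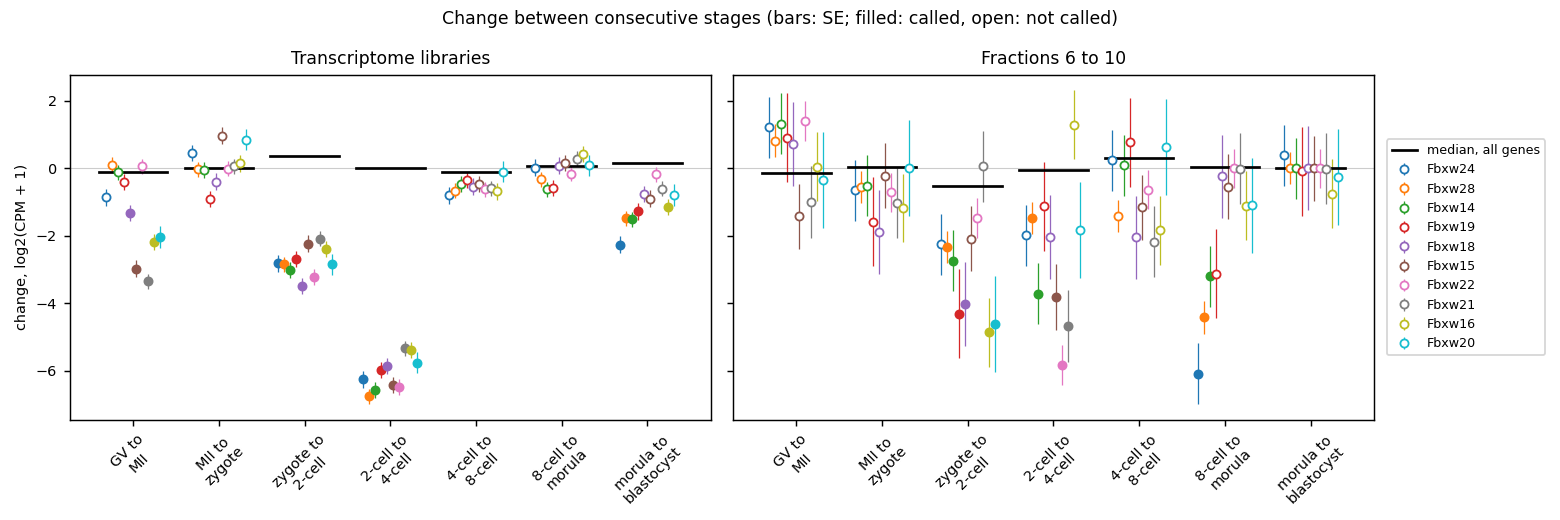
Change of each Fbxw gene between consecutive stages on the log2(CPM + 1) scale (points, with SE as bars) in transcriptomes (left) and in the means of fractions 6 to 10 (right). Filled points were called by limma, and black lines give the median of all genes. Left, all 10 points fall from zygote to 2-cell (-2.08 to -3.49) and from 2-cell to 4-cell (-5.34 to -6.75), and right the SEs are wider.

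The pathway the members serve was read from 13 genes of the SCF core and its control. From GV to MII 3 of 13 rose (Cul1 1.02, Uba3 1.07, Ube2r2 1.19) and 4 fell (Skp1 -2.09, Nedd8 -1.84, Glmn -1.49, Ube2m -1.11), with a median of -0.04, so that 7 of 13 were called where 34.5% of all genes were. Skp1, the F-box binding subunit, was at 3909 ± 246 CPM in GV and 923 ± 132 in MII oocytes (SD, n = 4). Cul1, the scaffold, was at 1220 and 2478 CPM, and Rbx1 at 359 and 349 CPM and not called. From zygote to 2-cell 3 rose (Nedd8 1.11, Cand1 1.14, Cdc34b 1.09) and 2 fell (Ube2r2 -2.66, Glmn -1.07), beside 33.9% of all genes called. From 2-cell to 4-cell 5 rose, namely Nedd8 (the modifier that activates cullins, 2.21), Ube2r2, Ube2m, Cdc34 and Cand1, and 6 fell, among them Dcun1d1 (-4.05), Cul1 (-3.08) and Skp1 (-1.55), beside 64.8% of all genes called.

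Further lists were read the same way, against the same shares of all genes (34.5%, 33.9% and 64.8% at the 3 steps). Of 8 other Fbxw genes, 1 rose (Fbxw5) and 2 fell (Btrc and Fbxw8) from GV to MII, and 2 rose (Fbxw2 and Fbxw9) and 1 fell (Btrc) from zygote to 2-cell. At the next step, into the 4-cell embryo, 3 rose (Btrc, Fbxw2 and Fbxw9) and 3 fell (Fbxw4, Fbxw5 and Fbxw7). Btrc, the WD40 F-box protein of the beta-catenin pathway, went from 293 CPM in GV to 36.8 in MII oocytes (-2.96) and rose by 2.38 from the 2-cell to the 4-cell stage. Fbxw4 was at 145.2 CPM in 2-cell and 0.218 in 4-cell embryos, a change of -6.91. Of 12 cell cycle F-box genes 1 rose (Ccnf) from zygote to 2-cell, and 2 rose (Skp2 and Ccnf) and 6 fell from 2-cell to 4-cell. Fbxo43 (Emi2), which holds the egg in metaphase and was picked after its values were seen, fell by 6.14 at that last step, within the range of the cluster.

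The 5 genes whose stage means were most like the mean standardised profile of the 10 members were Stk32a (Pearson's r 0.997), Mbl2 (0.996), Sfr1 (0.996), Qrfprl (0.995) and Lrrtm3 (0.995). The likeness was taken over 8 stage means of log2(CPM + 1) among 10441 genes, and 880 of these had r above 0.95. The members themselves had r from 0.988 to 0.998 and Fbxw17 0.692. Stk32a was at 201, 97.3, 102.8, 32.7 and 0.413 CPM on average from the GV oocyte to the 4-cell embryo. Sfr1 was at 1316 CPM in GV oocytes and still at 172.2 in 4-cell embryos and 137.9 in blastocysts. The others of the 5 averaged 2.09 CPM or less in 4-cell embryos. A standardised profile thus does not show the size of a fall. The stage means share their libraries, so these r values describe the pattern and nothing more.

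The gradients, which the choice of members by mean level did not use, hold the same genes at another share. They cover the same stages, so falls after the zygote there may not be independent of a choice by transcriptome level. Averaged over the 10 fractions of a gradient, the members summed to 3686, 6924 and 4221 CPM in the 3 GV gradients, 8677, 8397 and 7606 in MII oocytes and 4581, 3307 and 3794 in zygotes. The MII gradients were above all GV and zygote gradients, while the transcriptome sum was highest in GV oocytes. The transcriptome sum was 8.97 times the fraction sum in GV oocytes, 3.09 times in MII oocytes and 6.59 times in zygotes. As log2 ratios of fraction mean to transcriptome mean, the members had medians of -3.18, -0.97 and -2.45 at these stages. The 55, 350 and 336 other genes in the same range of transcriptome CPM had medians of -1.85, -1.94 and -2.26. For the 12 oocyte markers the fraction sum was 0.991, 1.30 and 1.53 times the transcriptome sum. Each fraction is scaled to its own total and given equal weight, so these sums are not amounts of RNA.

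At MII the members differed among themselves in this ratio. Fbxw28, Fbxw14, Fbxw19 and Fbxw22 had log2 ratios of fraction mean to transcriptome mean of -2.41, -2.43, -2.68 and -2.55. The other 6 lay between -1.05 (Fbxw15) and -0.001 (Fbxw20), against a median of -1.94 over the 350 genes in the same range of transcriptome CPM. Of the 4 genes first named, Fbxw28, Fbxw14 and Fbxw22 had overlapping GV and MII transcriptome libraries, and Fbxw19 was lower in every MII library (-0.40). They were singled out after these values, and the gradient positions given below, had been seen. Each contrast between the 4 and the other 6, here and below, is thus a description, with no test. The ratio and the change from GV to MII both contain the MII transcriptome level, with opposite signs. Genes that fell at MII thus tend to a higher ratio by construction, so the ratio and the change are not independent. Among the 10 coding sequences the 4 were 87.55% to 99.1% identical to each other (median 90.3%), the other 6 were 82.4% to 87.7% identical to each other (84.4%), and identity between the sets was 79.5% to 88.75% (83.2%).

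Position in the gradient also differed between these sets in MII oocytes, and is not separate support for the split. Fbxw24 measured 3444, 2868 and 2620 CPM on the light side of gradients A, B and C and 2450, 2021 and 1866 on the heavy side. It was highest in fraction 3 of all 3 gradients (4766 ± 942 CPM, SD, n = 3) against 1712 ± 20.3 in fraction 10. Fbxw20 measured 602.8, 651.4 and 608.8 CPM on the light and 394.4, 356.6 and 267.8 on the heavy side. Both genes were lower on the heavy side in every gradient, with no overlap.

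Fbxw19 and Fbxw22 lay the other way. Fbxw19 measured 474.8, 444.9 and 358.3 CPM on the light and 630.2, 844.7 and 633.5 on the heavy side, and reached 1015 ± 372 CPM in fraction 10. Fbxw22 measured 234.9, 251.1 and 203.4 CPM on the light and 411.4, 442.1 and 341 on the heavy side. Fbxw28 (1131, 944.6 and 867.3 against 1234, 1204 and 1080 CPM) and Fbxw14 (1043, 942 and 848.2 against 1097, 1101 and 1056) were higher on the heavy side of each gradient by less. In all, the heavy side was higher in 12 of 12 gradients of the 4 genes (each gene in each gradient) and in 1 of 18 of the other 6.

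The mean fraction position, weighting fraction numbers by CPM, was 5.91 to 6.86 for the 4 genes and 4.43 to 5.72 for the other 6 in MII gradients, with no overlap. By limma over all 8 stages 0 of 10 members were called between the sides in MII oocytes (3.23% of all genes), with 0 at an unadjusted p under 0.05 and 0 called by edgeR and 0 by DESeq2. The changes ran from -0.89 (Fbxw20, SE 1.28) to 0.79 (Fbxw22, SE 0.80). That fit carries the wide spread of the later stages into every SE. With only the MII gradients in the fit Fbxw22 had an adjusted p of 0.0353 and Fbxw20 of 0.0372 (limma), both under the size of 1, and 9.69% of all genes were called.

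**Figure D3:**
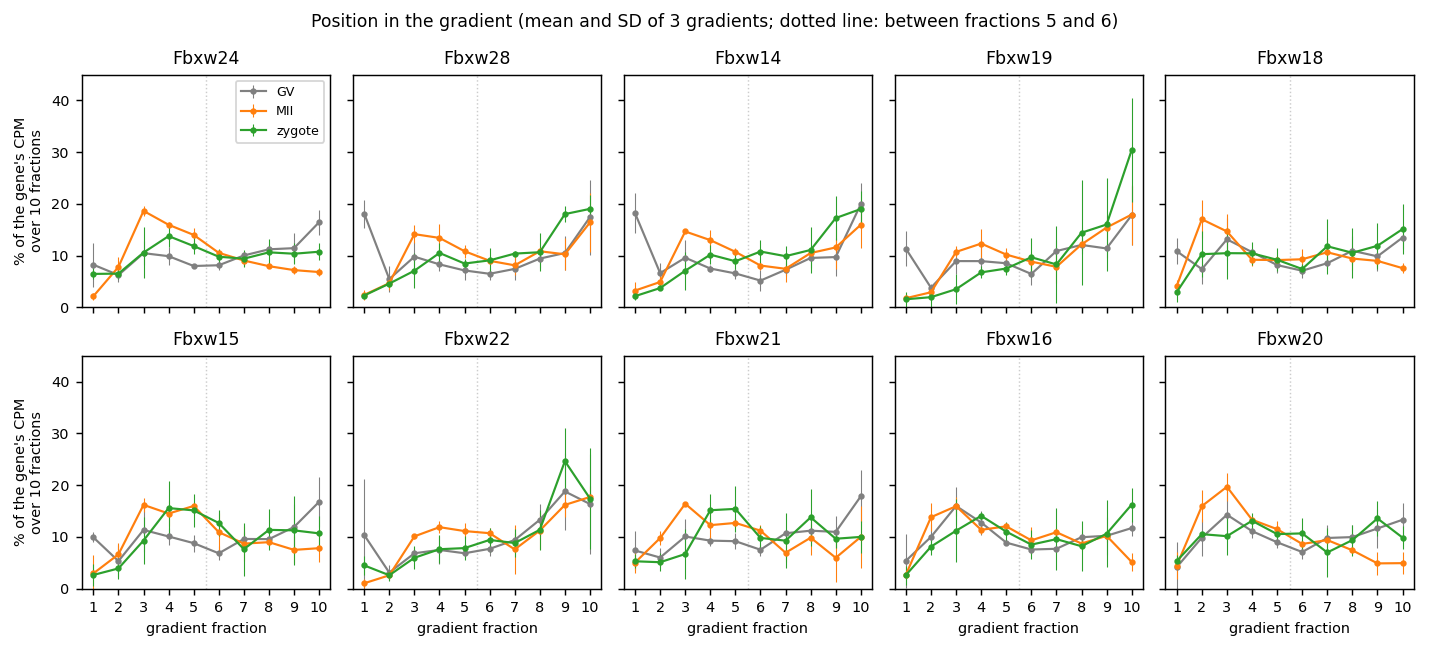
Distribution of each Fbxw gene over gradient fractions 1 to 10 (horizontal axis) in GV oocytes, MII oocytes and zygotes, as the percentage of the gene's summed CPM of the 10 fractions (vertical axis, mean and SD of 3 gradients). In MII oocytes Fbxw24 and Fbxw20 peak in fraction 3, and Fbxw19 and Fbxw22 are highest at the heavy end in both MII oocytes and zygotes.

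In zygotes the 4 genes lay further to the heavy side. Fbxw19 measured 73.8, 50.3 and 61.5 CPM on the light side and 216.7, 167.8 and 342.1 on the heavy side of gradients A, B and C, with 451 ± 155 CPM in fraction 10. Fbxw22 measured 98.1, 94.3 and 93.5 against 272.4, 179.4 and 291.5 CPM, and Fbxw14 455.7, 293.5 and 333.9 against 750.9, 689.7 and 840.7. The heavy side exceeded the light side in every gradient of these genes. Fbxw28 measured 528.6, 289.8 and 383 CPM against 883.8, 684.6 and 835.4, again without overlap.

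The other 6 differed less between the sides. Fbxw18 was higher on the heavy side of all 3 gradients, with 301.5, 251.9 and 199 CPM on the light and 391.8, 262.7 and 333.1 on the heavy side. Fbxw24 measured 1700, 1096 and 1173 CPM on the light and 1543, 1220 and 1289 on the heavy side, and Fbxw20 408.2, 307.5 and 287.3 against 459.3, 324.7 and 253.8. The sides of these 3 genes overlapped. The heavy side was higher in 12 of 12 pairs of gene and gradient for the 4 genes and in 12 of 18 for the other 6. These pairs come from only 3 gradients and are not replicates. The 4 were named after the zygote values had been seen, so this contrast follows in part from the choice. The mean position was 7.60 ± 0.22 for Fbxw19, 7.02 ± 0.49 for Fbxw22, 6.84 ± 0.16 for Fbxw14 and 6.82 ± 0.12 for Fbxw28 (SD, n = 3), and between 5.70 and 6.12 for the others.

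Over all stages limma called 0 of 10 members between the sides in zygotes (3.01% of all genes), with 1 at an unadjusted p under 0.05 and 0 by edgeR and 0 by DESeq2. The changes were 1.91 for Fbxw19 (SE 1.12, adjusted p 0.519), 1.34 for Fbxw22 (SE 0.80, adjusted p 0.531), 1.09 for Fbxw14 (SE 0.78, adjusted p 0.664) and 1.03 for Fbxw28 (SE 0.50, adjusted p 0.356). With only the zygote gradients in the fit Fbxw19 (adjusted p 0.0201), Fbxw22 (0.0185) and Fbxw14 (0.0287) were called and Fbxw28 was not (0.0609), where 10.2% of all genes were called. The call thus depends on whether the spread is taken from the zygote gradients or from all stages.

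In GV oocytes the 4 genes and the other 6 were not set apart in this way. Over genes and gradients, the 4 genes were higher on the heavy side in 10 of 12 values, the other 6 in 13 of 18. Called by limma were 0 of 10 (0.0725% of all genes), with 0 at an unadjusted p under 0.05, 0 by edgeR and 0 by DESeq2. Fbxw24 measured 448.6, 1134 and 595.4 CPM on the light and 696.8, 1219 and 857.8 on the heavy side, and gradient B was the highest on both sides. Fraction 1 of the GV gradients A and B held few reads, 2 and 30 of them from Fbxw24.

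Across the 10 members the transcriptome change from GV to MII and the difference between heavy and light sides had a Pearson's r of 0.21 (Spearman's rho 0.09) in GV oocytes, 0.71 (0.70) in MII oocytes and 0.73 (0.65) in zygotes. These r values are over genes of 1 family measured in the same libraries and are a description with n = 10. From the MII oocyte to the zygote the difference between the sides moved toward the heavy side in 10 of 10 members. The moves were 0.50 (Fbxw21, SE 1.44) to 1.19 (Fbxw19, SE 1.59), with a median of 0.60 against 0.03 over all genes. The members are related genes in the same gradients, so these moves are not independent of each other. The share of all genes that moved this way was not taken. None of these 10 moves was called by limma (0.0198% of all genes; 0 at an unadjusted p under 0.05, 0 by edgeR and 0 by DESeq2), and in the fit over 8 stages each was smaller than its SE apart from that of Fbxw28 (0.77, SE 0.70). With only the MII and zygote gradients in the fit all 10 moves were larger than their SEs, which ran from 0.24 (Fbxw14) to 0.46 (Fbxw15), and 0 were called (0.237% of all genes). From GV to MII 0 of 10 were called (0.185% of all genes; 0, 0 and 0 by the same 3 counts), and from zygote to 2-cell 0 of 10 (4.65%; 1, 0 and 0).

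**Figure D4:**
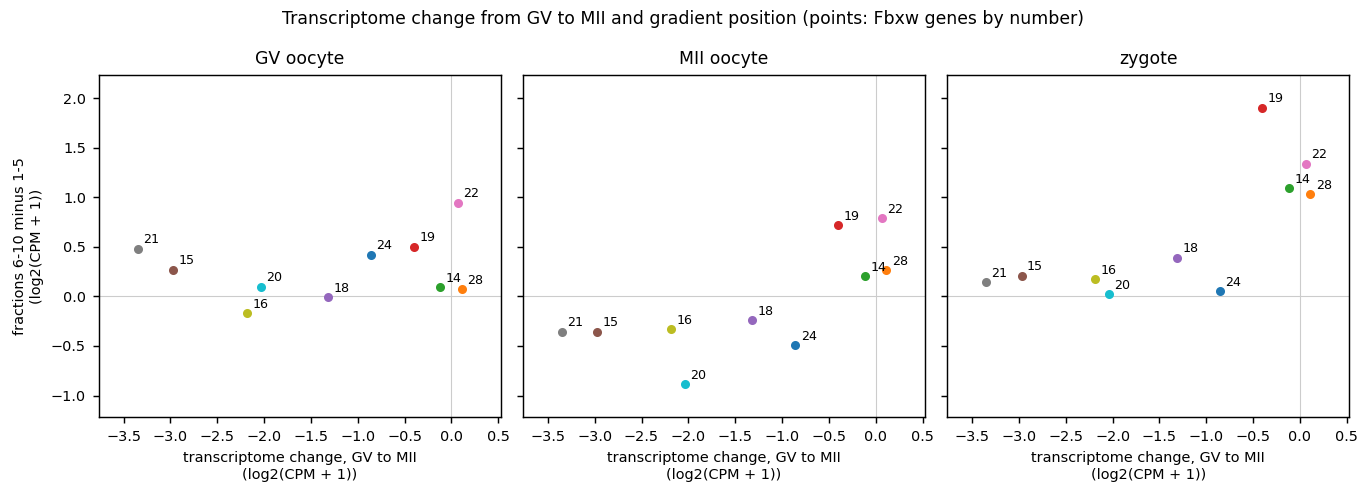
For each of the 10 Fbxw genes (points, labelled with the gene's number), the difference between fractions 6 to 10 and fractions 1 to 5 (vertical axis) against the transcriptome change from GV to MII oocytes (horizontal axis), both on the log2(CPM + 1) scale. In MII oocytes and zygotes Fbxw14, Fbxw19, Fbxw22 and Fbxw28 are at the upper right, with differences of 0.20 to 0.79 and of 1.03 to 1.91.

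The level on the heavy side itself changed less clearly than the transcriptomes. From GV to MII 0 of 10 members were called (4.06% of all genes), with 1 at an unadjusted p under 0.05, 0 by edgeR and 0 by DESeq2. The 4 genes changed by 0.83 to 1.40 and the other 6 by -1.42 to 1.22, and with only these gradients in the fit 5 were called (12.1% of all genes), Fbxw24, Fbxw14 and Fbxw22 higher and Fbxw15 and Fbxw21 lower. From MII to zygote 0 were called (1.49%; 0 at an unadjusted p under 0.05, 0 by edgeR, 0 by DESeq2). With only the MII and zygote gradients in the fit 1 was called there, Fbxw18 (-1.88; 1.05% of all genes).

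From zygote to 2-cell 6 of 10 members fell on the heavy side (15.7% of all genes lower, 20.8% in either direction), with a median of -2.53 against -0.51 over all genes. Fbxw28 changed by -2.33 (SE 0.48, limma adjusted p 0.00136), from 883.8, 684.6 and 835.4 CPM to 150.8, 134.2 and 193.6. Fbxw16 changed by -4.86 (SE 1.02, adjusted p 0.00164), from 185.6, 148.5 and 129 CPM to 0.496, 2.65 and 26. Neither gene's zygote and 2-cell gradients overlapped, and both calls held when any 1 gradient was left out. The other 4 were Fbxw14 (-2.73), Fbxw19 (-4.30), Fbxw18 (-4.03) and Fbxw20 (-4.61). Their adjusted p lay between 0.0239 and 0.0353 and depended on single gradients. Fbxw14 was not called without zygote gradient A (-2.74), B (-2.80) or C (-2.66) or 2-cell gradient B (-2.47) or C (-2.62). Fbxw18 was not called without zygote gradient A (-3.89), B (-4.18) or C (-4.01) or 2-cell gradient A (-2.35). Fbxw19 was not called without zygote gradient A (-4.35) or C (-4.02) or 2-cell gradient C (-2.54), nor Fbxw20 without zygote gradient A (-4.39) or B (-4.64) or 2-cell gradient A (-2.85). In all, 2 members were called without zygote gradient A, 3 without B and 3 without C, and edgeR and DESeq2 called 1 member each. With only these gradients in the fit 3 were called (10.2% of all genes), Fbxw28, Fbxw14 and Fbxw24, and Fbxw16 was not (adjusted p 0.0559). Means of log2 values over the fractions gave 10.

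From 2-cell to 4-cell 5 of 10 fell on the heavy side (22.3% of all genes lower, 37.8% in either direction). Fbxw22 changed by -5.82 (SE 0.58, limma adjusted p 9.45e-08), from 74.5, 192.2 and 45.3 CPM to 0, 0 and 2.71. Fbxw21 changed by -4.68, from 172.1, 118 and 75 CPM to 92.4, 0 and 0, where gradient A stayed within the 2-cell range. Fbxw15 (-3.81), Fbxw14 (-3.71) and Fbxw28 (-1.47) were also called. Fbxw28 was not called without 2-cell gradient C (-1.32) or 4-cell gradient B (-1.15), and without 4-cell gradient C 8 members were called. edgeR and DESeq2 called 2 each, and with only these gradients in the fit 1 was called, Fbxw22 (adjusted p 0.0242).

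From the 8-cell embryo to the morula 3 of 10 fell on the heavy side (2.56% of all genes lower, 7.98% in either direction), Fbxw24 (-6.08), Fbxw28 (-4.42) and Fbxw14 (-3.20). Fbxw14 was not called without 8-cell gradient B (-3.04) or C (-2.36), nor without morula gradient A, B or C (-3.20 each). DESeq2 called 5 members. From 4-cell to 8-cell 0 of 10 were called (6.54% of all genes; 1 at an unadjusted p under 0.05, 2 by edgeR, 3 by DESeq2), with 2 called without 4-cell gradient B and 1 without 4-cell gradient C or 8-cell gradient C. From morula to blastocyst 0 were called (0.0757%; 0, 0 and 2 by the same 3 counts).

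From the 4-cell stage to the morula every member called between the sides was lower on the heavy side. In 4-cell embryos 5 of 10 were called lower on the heavy side (12.9% of all genes, 16.3% in either direction). Fbxw14 measured 114.4, 71.3 and 226 CPM on the light and 15.2, 0.190 and 33.1 on the heavy side of gradients A, B and C (-3.83, SE 0.78, limma adjusted p 0.000529). Fbxw18 measured 177.4, 86.8 and 156.7 against 0.434, 0.0391 and 76 CPM (-4.80, SE 1.0, adjusted p 0.000773). The sides of both genes were apart in every gradient, and both calls held in the fit over 8 stages when any 1 gradient was left out. With only the 4-cell gradients in the fit their adjusted p was 0.481 and 0.508, and 0 of 10 members and 0 of 15172 genes were called. edgeR and DESeq2 called 1 member each. Fbxw24 measured 629, 355.1 and 708.5 against 316.4, 4.85 and 198.9 CPM (-2.92), and without gradient B its change was -1.41 and not called. Fbxw15 (-3.05) was not called without gradient A (-2.31), and Fbxw28 (-1.60) was not called without gradient A (-1.66), B (-1.60) or C (-1.54).

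In 8-cell embryos 5 of 10 were called lower on the heavy side (6.62% of all genes, 9.05% in either direction). Fbxw21 measured 20.5, 185.8 and 53.4 CPM on the light and 0, 0.0129 and 0.0131 on the heavy side (-5.90, SE 1.02, limma adjusted p 6.97e-05). Fbxw15 measured 16.3, 42.7 and 41.2 against 0, 2.00 and 0.0441 CPM (-4.44, SE 0.88, adjusted p 0.000428). Both calls held in the fit over 8 stages when any 1 gradient was left out. With only the 8-cell gradients in the fit 0 of 10 members were called, and edgeR called 2 and DESeq2 4. Fbxw18 (-3.75) and Fbxw22 (-2.56) were not called without gradient B (-3.62 and -1.80) or C (-3.33 and -2.04), Fbxw28 (-2.12) was not called without gradient A (-1.71), and 3 members were called without gradient C. In 4-cell embryos the median over members was -2.47 against -0.26 over all genes, and in 8-cell embryos -2.04 against 0.00.

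In 2-cell embryos 1 of 10 was called lower on the heavy side (11.8% of all genes, 18.2% in either direction). Fbxw16 measured 31.4, 61.1 and 37.2 CPM on the light and 0.496, 2.65 and 26 on the heavy side (-3.01, SE 0.98, limma adjusted p 0.0277), and was not called without gradient A (-2.29) or B (-2.47). With the gradient as a block, since both sides come from 1 lysate, Fbxw20 was called too (-2.73, adjusted p 0.0399). With only the 2-cell gradients in the fit Fbxw16 had an adjusted p of 0.304 and Fbxw20 of 0.473, and 0 members were called, as in edgeR and DESeq2, while means of log2 values gave 5. In morulae 1 of 10 was called (4.17% lower, 5.81% in either direction), Fbxw24 (-2.79, SE 0.80, adjusted p 0.0265), which was not called without gradient A (-2.61), B (-3.12) or C (-2.64). The block added Fbxw28 there (-1.52, adjusted p 0.0253), a fit of the morula gradients alone called 0, edgeR 3 and DESeq2 8. In blastocysts 0 of 10 were called (2.74% of all genes; 1 at an unadjusted p under 0.05, 1 by edgeR, 4 by DESeq2).

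The gradient values of these stages rest on few fractions. In 4-cell gradients 172 of 300 member values (10 genes, 3 gradients, 10 fractions) had 0 reads, or 57.3%, and in 8-cell gradients 148, or 49.3%, against 3 in GV oocytes, 0 in MII oocytes and zygotes and 33 in 2-cell embryos. A single fraction held a median of 52.1% of a member's summed CPM in 4-cell gradients and 17.8% in MII gradients. Fbxw24 in fraction 10 of the 4-cell gradients measured 1581 CPM in A, 0.427 in B and 0 in C. A member with 0 reads in 1 such library was below detection there.

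In the same stages the gradients held more of the members than the transcriptomes did. Their summed level over the fractions was 934.7, 377.4 and 1126 CPM in the 4-cell gradients, 21.2 times the transcriptome sum, and 267.3, 421.3 and 492.7 CPM in the 8-cell gradients, 17.8 times. Fbxw24 averaged 368.8 CPM over 4-cell fractions and 11.4 in 4-cell transcriptomes, a log2 ratio of 4.90. The median log2 ratio of the members was 3.51 in 4-cell and 3.09 in 8-cell embryos, against 0.35 and 0.53 over the 4554 and 4869 genes of the same range of transcriptome CPM, whose 95th percentiles were 3.52 and 3.06. The 12 oocyte markers moved the same way, at 66.1 to 82.9 CPM in 4-cell transcriptomes and 679.6 to 1017 in 4-cell gradients, 12.1 times on average, and 7.99 times in 8-cell embryos. In morulae the ratio was 0.752 for the members and 1.06 for the oocyte markers. The part of this in the calls between the sides was not tested.

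**Figure D5:**
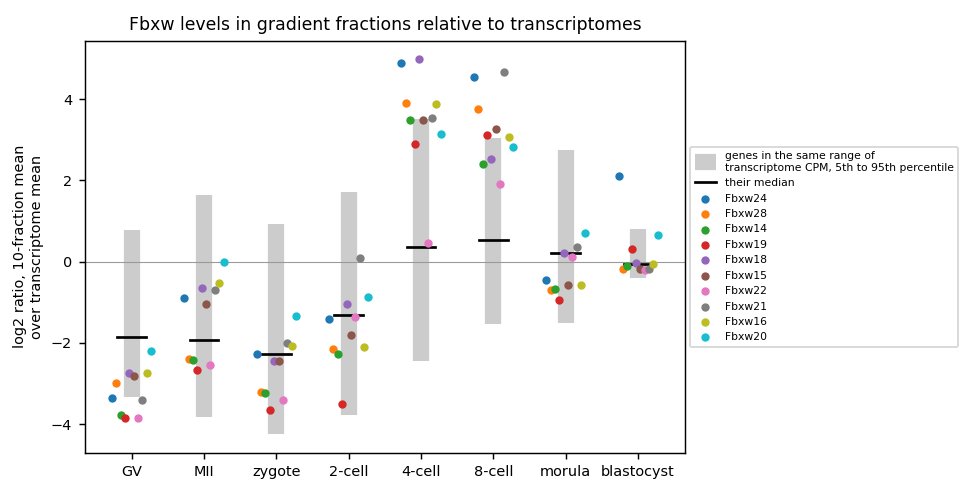
Log2 ratio of a gene's mean CPM over 10 fractions (3 gradients) to its mean transcriptome CPM (vertical axis) for each stage (horizontal axis), for the 10 Fbxw genes (points). Grey bars span the 5th to 95th percentile, and black lines mark the median, of other genes within the members' range of transcriptome CPM. The members have medians of -3.18 in GV oocytes, -0.97 in MII oocytes, 3.51 in 4-cell and 3.09 in 8-cell embryos.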

How the data were processed

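Expression was measured in 272 libraries, 32 transcriptomes and 240 gradient fractions. The authors deposited CPM per gene symbol, and per the submitters' processing notes used Trim Galore 0.6.7, FastQC, HISAT2 2.2.1, featureCounts 2.0.1 and edgeR on GRCm39. For 9 columns the deposited values are treated as a signal rather than CPM, because symbols with identical values (159 in all) lift their sums above 1000000. Dropping repeats left 15771 symbols. CPM steps gave whole reads for 100% of values in each library (tolerance 0.05 reads), and these recovered reads entered edgeR and DESeq2 as alternatives. Fraction 7 of the 2-cell gradient B was left out of those count models.

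The members and gene lists were chosen with earlier results of these data known. Levels were compared as log2(CPM + 1), a scale that understates changes of low genes. A gene was tested if it had at least 1 CPM in n samples, n being the size of the smallest group. The tests were run with limma over all 8 stages, with Benjamini-Hochberg adjustment over all genes. A call needed an adjusted p under 0.05 and a change of at least 1. Heavy and light sides are the mean CPM of fractions 6 to 10 and 1 to 5 of a gradient. The change of the cell cycle F-box list from GV to MII oocytes is not reported here. Named genes are the 10 members, the matching symbols outside them, up to 4 genes of each list by mean CPM, the genes of counts of 5 or fewer and the 5 symbols closest in profile. Alternatives were pseudocounts of 0.5 and 5, no filter, quantile normalization, only the groups compared, means of log2 values, count models, the replicate block and leaving out each library. The sides of a gradient are paired because they come from the same lysate, and their deviations correlated at 0.00776 to 0.253 over 24 gradients.

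The labels do not say that replicates come from separate animals, so p-values measure the spread between these samples. No 2 of 286 replicate pairs agreed within sampling noise (lowest chi-square per degree of freedom 2.55). Reads carry no molecular identifiers, and 3 reads are the floor of a count of 0, for counting error only. Versions were R 4.3.3, limma 3.58.1, edgeR 4.0.16, DESeq2 1.42.0, Python 3.11.15, numpy 2.4.6, pandas 2.3.3, scipy 1.17.1, biopython 1.88 and matplotlib 3.10.9. Fits were tested on simulated data.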

Additional observations from a re-analysis of the deposited data

Results flagged for a closer look

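In 5 of 80 groups of 4 transcriptome libraries (10 genes, 8 stages), 1 library lay far from the other 3, and chance alone gives about 1 in 20 groups. Fbxw20 was at 571 CPM in MII library C and at 440 to 461 in the others. Fbxw28 was at 5.01 CPM in 8-cell library B against 3.06 to 3.27 in the others. Fbxw16 was at 0.464 CPM in 4-cell library A against 2.41 to 2.67. Fbxw22 was at 1.39 CPM in morula library C against 0 to 0.159, and Fbxw19 at 0.167 CPM in blastocyst library C against 0 in the other 3. The last 4 lie at stages where the members were low.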

How the results depend on the processing

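Over all comparisons, 321 of 385 counts of called members under an alternative were within 1.5 times the reported count and 64 were not. For single genes 825 of 940 values kept their direction and side of the threshold, 110 lost the call, 4 gained it and 1 changed sign, Fbxw19 from GV to MII oocytes in transcriptomes (0.052 in DESeq2 against -0.40). The cause of these changes was not tested.

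In transcriptomes the calls from zygote to 2-cell and from 2-cell to 4-cell stayed at 10 in every alternative. From morula to blastocyst (5 called) the count was 8 with a pseudocount of 0.5, 1 with 5, 9 in edgeR and 9 in DESeq2, and 3 to 6 with 1 library left out. Where 0 were called, edgeR called 1 from MII to zygote and 1 from 8-cell to morula, DESeq2 1 from 8-cell to morula, and leaving out 1 library gave 0 to 1 from MII to zygote and from 4-cell to 8-cell.

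On the heavy side, a fit of only the 2 groups of each step called 5 at GV to MII (0 reported), 1 at MII to zygote (0), 3 at zygote to 2-cell (6) and 1 at 2-cell to 4-cell (5). A pseudocount of 5 called 1 from GV to MII. From zygote to 2-cell means of log2 values gave 10 and edgeR and DESeq2 1 each, and from 2-cell to 4-cell both count models gave 2. From 4-cell to 8-cell (0) quantile normalization and means of log2 values gave 1, edgeR 2 and DESeq2 3. DESeq2 gave 5 at the step into the morula (3) and 2 at the step out of it (0). With 1 gradient left out the counts were 2 to 6 from zygote to 2-cell, 4 to 8 from 2-cell to 4-cell, 0 to 2 from 4-cell to 8-cell and 2 to 4 from 8-cell to morula.

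Between the sides, with only the stage compared in the fit, 3 were called in zygotes (0 reported) and 0 in 2-cell (1), 4-cell (5), 8-cell (5) and morula (1) gradients. Means of log2 values gave 5 in 2-cell, 3 in 8-cell and 0 in morula gradients, and 3 for the change of the difference from zygote to 2-cell (0). edgeR gave 0 in 2-cell, 1 in 4-cell, 2 in 8-cell, 3 in morula and 1 in blastocyst gradients (0), and DESeq2 0, 1, 4, 8 and 4. A pseudocount of 5 gave 3 in 8-cell and 0 in morula gradients, and 0.5 gave 2 in morulae. With 1 gradient left out the counts were 0 to 1 in 2-cell, 4 in 4-cell, 3 to 4 in 8-cell and 0 to 1 in morula gradients.

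With the gradient as a replicate block the counts were 2 in 2-cell, 6 in 8-cell and 2 in morula gradients, where Fbxw14 was the gene added in 8-cell gradients (-1.95, adjusted p 0.0214), and the block changed no other count. Letters shared across stages name separate samples. Deviations of same-letter libraries correlated at -0.178 to 0.195 in transcriptomes, where 14 of 28 libraries lay closest to their own letter, and at -0.113 to 0.102 on the heavy side (11 of 24). The block on these letters left every count of calls as reported. No paired analysis was possible because the 2-cell transcriptome columns carry no label letter, for the steps from zygote to 2-cell and from 2-cell to 4-cell.

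Low reads from the 4-cell stage on limit every value of the later gradients.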

Other observations

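The 5 matching genes outside the 10 were also read in the oocyte. Fbxw27 had a profile over 8 stage means with r of 0.994 to that of the 10 members, Fbxw25 of 0.989, Fbxw26 of 0.973 and Fbxw13 of 0.964. In zygote gradients Fbxw26 measured 426.9, 394.1 and 399 CPM on the light and 344.9, 225.1 and 157.2 on the heavy side, and Fbxw27 measured 414.2, 315.6 and 393.4 against 240.8, 235.1 and 178.4. Both genes were lower on the heavy side of every zygote gradient, without overlap, where Fbxw14, Fbxw19, Fbxw22 and Fbxw28 were higher. These genes were picked after their values were seen, and the difference was not tested.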
